A study of Mus musculus with 20 samples.

Results

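Nnt, Slc25a37, Entpd4, Usp32, TC1480729, Nlk and Drbp1 were examined across liver and white adipose tissue (WAT) of mice with and without CD44. These 7 gene names, of 27962 on the array, were read by 15 of its 41174 probes, and every probe with 1 of these names was taken. The genes had been chosen by their difference between CD44KO and WT arrays in both tissues, so that difference is given here as a description, with no test. Drbp1 is the array's older name for Rbm45, and TC1480729 is a cluster of expressed sequences without a gene symbol.

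The study read total RNA on Agilent mouse 1-colour arrays to find genes downstream of CD44, a cell surface receptor for hyaluronan. There were 20 arrays in 4 groups of 5, WT(HFD) liver, CD44KO(HFD) liver, WT(HFD) WAT and CD44KO(HFD) WAT, and the series' description gives 5 WT and 5 CD44KO animals as their source. All mice were male, 7 months old, of C57BL/6 background per the labels, and had been given a diet of 35% fat (HFD) over 21 weeks. The CD44KO line came from another laboratory and had been bred repeatedly to C57BL/6J, and whether the WT mice were littermates is not given in the sources used here. Which liver array and which WAT array share a mouse is not in the labels, and the arrays gave RNA signals, not the DNA genotype of any locus.

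Nnt encodes nicotinamide nucleotide transhydrogenase, an enzyme of the inner mitochondrial membrane that uses the proton gradient to make NADPH, which feeds the glutathione and thioredoxin systems. As background, the C57BL/6J substrain is known to carry a deletion of several exons of Nnt that other C57BL/6 substrains lack. The other genes encode a mitochondrial iron carrier (Slc25a37, mitoferrin-1), a nucleotide-hydrolysing enzyme of the Golgi and lysosomes (Entpd4), a deubiquitinating enzyme (Usp32), a kinase that acts on Wnt signalling (Nlk) and an RNA-binding protein (Rbm45).

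All signals below are log2 of the processed signal minus the 75th percentile of the same array, so a value of 0 is the level of that percentile. A spot was well above background when the scanner software marked it so. The 75th percentile was 433 to 575 intensity units on the liver arrays and 1541 to 2792 on the WAT arrays. WT(HFD) WAT replicate 1 stood apart, with 89.5% of its spots well above background against 63.2% to 69.5% on the other WAT arrays. Cd44 itself, read by the probe A_52_P229536, had a mean of 0.48 ± 0.28 (SD, n = 5) in WT liver and of -3.74 ± 0.41 in CD44KO liver, and of 4.07 ± 0.37 and -0.51 ± 0.13 in WAT, so every array went with its genotype label. The summed signal of 5 hepatocyte markers was 10.4 to 11.0 on the liver arrays and 0.77 to 5.27 on the WAT arrays, and that of 6 adipocyte markers was 8.58 to 9.86 on the WAT arrays and at most 5.00 on the liver arrays. That of 6 macrophage markers was 3.28 to 4.52 in WT liver and 3.37 to 4.62 in CD44KO liver, and 7.53 to 8.16 in WT WAT and 7.14 to 7.95 in CD44KO WAT. Of these 6, Itgax (-2.01, limma adjusted p = 0.0284) and Lgals3 (-1.33, limma adjusted p = 0.0319) were lower in CD44KO liver. The others did not pass there, with Cd68 at -0.55, Emr1 at 0.50, Mrc1 at 0.49 and Csf1r at 0.07. The part of macrophages in the liver calls below was not tested.

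Across the 15 probes, the CD44KO and WT arrays did not overlap for 10 probes in liver, 6 higher and 4 lower in CD44KO, and for 8 probes in WAT, 6 higher and 2 lower. Over all probes tested, 11.7% did not overlap in liver and 6.18% in WAT. These shares were part of how the genes were chosen, so nothing was read from them. Without WT(HFD) WAT replicate 1, the number in WAT was 9.

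**Figure D1:**
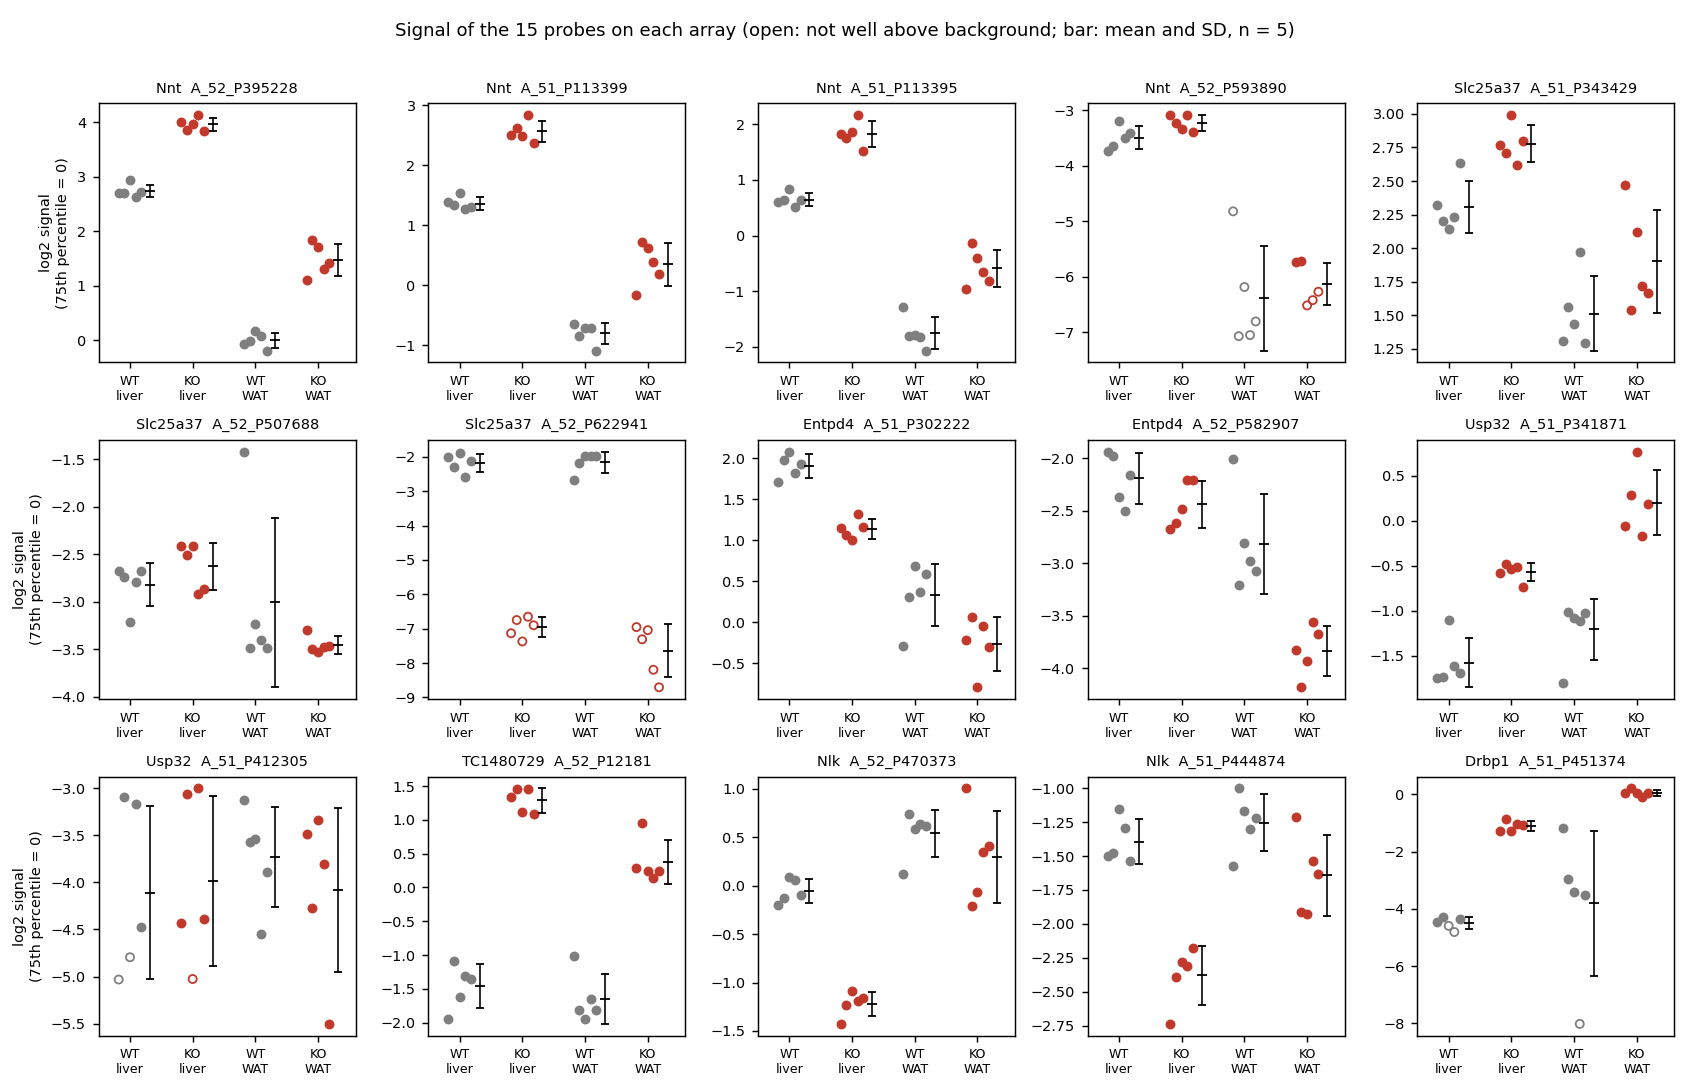
Each panel plots the log2 signal (75th percentile of the array at 0) of 1 probe on the 20 arrays, grouped as WT liver, CD44KO (KO) liver, WT WAT and KO WAT; open points were not well above background and the bar gives the mean and SD of 5 arrays. The first 3 Nnt panels separate the genotypes in both tissues. The probe A_52_P622941, named Slc25a37, was well above background on the 10 WT arrays only.

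Nnt was read by 4 probes, all on the minus strand of chromosome 13 (build mm7 of the array's annotation, as for all positions here). The sequences of the brightest probe (chr13:116544819-116544878) and of the probe farthest from it (chr13:116603069-116603127) are shown because their genotype differences were unlike, and no base is marked.
Nnt A_52_P395228: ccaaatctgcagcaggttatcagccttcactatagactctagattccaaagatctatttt
Nnt A_52_P593890: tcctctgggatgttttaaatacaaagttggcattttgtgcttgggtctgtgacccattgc

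On the brightest Nnt probe, the 5 WT liver arrays read 2.71, 2.70, 2.94, 2.64 and 2.73 and the 5 CD44KO liver arrays 4.02, 3.87, 3.97, 4.13 and 3.85. In WAT the WT arrays read -0.07, -0.02, 0.17, 0.08 and -0.20, and the CD44KO arrays 1.11, 1.83, 1.71, 1.31 and 1.41. Every CD44KO array lay above every WT array of its tissue, by at least 0.91 in liver and 0.94 in WAT. The mean difference was 1.23 (SE 0.08, the standard error of the limma fit, as below) in liver and 1.48 (SE 0.17) in WAT, which is 2.34-fold and 2.79-fold. Within slides that held both genotypes, the difference ran from 1.08 to 1.33 in liver and from 1.62 to 1.73 in WAT.

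A pair of further Nnt probes lay within 1 kb of the brightest one and gave about the same difference. A_51_P113395 differed by 1.18 (SE 0.12) in liver and 1.16 (SE 0.21) in WAT, and A_51_P113399 by 1.20 (SE 0.10) and 1.15 (SE 0.19). All 3 probes separated the genotypes in both tissues. The liver difference minus the WAT difference was -0.26 (SE 0.19), 0.02 (SE 0.24) and 0.05 (SE 0.22) for the 3 probes.

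The fourth Nnt probe, A_52_P593890, was designed on the cDNA AK087064 and lay 57.6 kb from the nearest of the others. It read -3.73, -3.65, -3.19, -3.49 and -3.41 in WT liver and -3.09, -3.22, -3.34, -3.09 and -3.40 in CD44KO liver, so the genotypes overlapped, with a difference of 0.27 (SE 0.11). In WAT it was well above background on none of the 5 WT arrays and on 2 of the 5 CD44KO arrays, and it was not tested there. The 4 probes of Nnt thus did not agree in size, and the 3 that did lie close together.

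The name Slc25a37 was carried by 3 probes on the minus strand of chromosome 14, which are shown because they gave different results. Their positions are chr14:64104507-64104566, chr14:64107682-64107741 and chr14:64325153-64325212 in this order, and no base is marked. The third carries the array's name Slc25a37 but lies beyond both Entpd4 probes, and whether it reads that gene was not tested.
Slc25a37 A_51_P343429: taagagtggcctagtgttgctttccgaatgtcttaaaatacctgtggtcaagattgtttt
Slc25a37 A_52_P507688: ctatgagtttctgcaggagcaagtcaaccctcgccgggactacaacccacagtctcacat
Slc25a37 A_52_P622941: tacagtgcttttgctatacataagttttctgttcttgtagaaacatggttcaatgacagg

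The probe A_52_P622941, designed on the cDNA AK034948, was well above background on all 10 WT arrays and on no CD44KO array. Its WT signals were -1.99, -2.30, -1.90, -2.57 and -2.13 in liver and -2.68, -2.19, -1.98, -1.97 and -1.96 in WAT. In intensity units the probe read 82.9 to 145 in WT liver against 3.13 to 4.92 in CD44KO liver, and 421 to 662 in WT WAT against 4.69 to 16.6 in CD44KO WAT. Since the CD44KO values were not well above background, they give only a bound. On the processed signals the probe was at least 5.91-fold lower in CD44KO liver and at least 19.4-fold lower in CD44KO WAT. The bound was set by the dimmest signal well above background on each CD44KO array, not by a limit measured for this probe. Without that bound the means differed by -4.79 in liver and -5.48 in WAT, and with normexp background correction by -1.23 and -2.76.

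The other probes named Slc25a37, both designed on NM_026331, did not show this. A_51_P343429, the brightest, read 2.32, 2.20, 2.14, 2.23 and 2.64 in WT liver and 2.77, 2.71, 2.99, 2.62 and 2.80 in CD44KO liver, with 1 WT array inside the CD44KO range. Its difference was 0.47 (SE 0.11) in liver and 0.39 (SE 0.22) in WAT, where the genotypes also overlapped and the value was 0.25 without CD44KO(HFD) WAT replicate 1. A_52_P507688 differed by 0.20 (SE 0.14) in liver and -0.45 (SE 0.37) in WAT, and the liver value was 0.10 without WT(HFD) liver replicate 3 and the WAT value -0.05 without WT(HFD) WAT replicate 1, whose signal of -1.42 stood apart from the others at -3.49 to -3.24.

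Slc25a37 supplies iron to mitochondria in red cell precursors, and erythroid markers were read beside it. The summed signal of 8 erythroid markers, led by Hbb-b1 and Hba-a1, had a range of 7.17 to 7.84 in WT liver and 7.61 to 8.70 in CD44KO liver, and of 5.84 to 7.81 in WT WAT and 7.30 to 8.93 in CD44KO WAT. Of the 8 markers 4 passed the filter on dim probes in liver and 6 in WAT, and none of these passed an adjusted p under 0.05 in either tissue (limma; 2 in liver and 3 in WAT had an unadjusted p under 0.05). CD44KO(HFD) WAT replicate 1 had both the highest marker sum, 8.93, and the highest Slc25a37 signal, 2.47, of the WAT arrays. The part of blood cells in the difference of the brightest Slc25a37 probe was not tested.

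**Figure D2:**
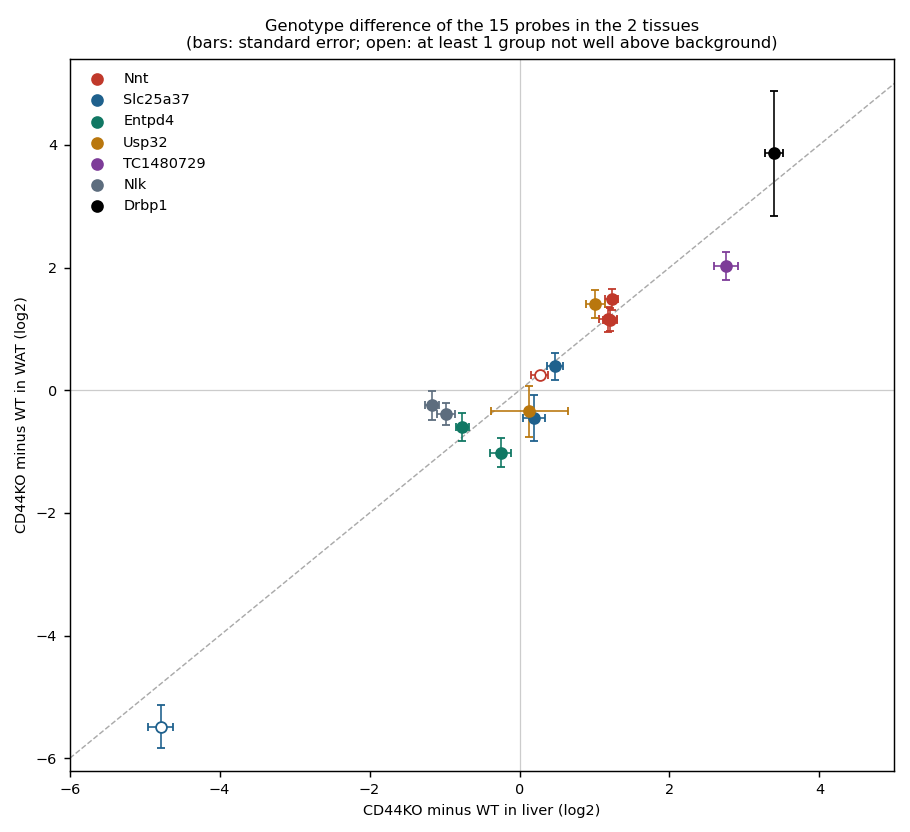
CD44KO minus WT (log2) in liver on the x axis and in WAT on the y axis for the 15 probes, coloured by gene, with bars of 1 standard error and a dashed line of equal difference; open points had a genotype that was not well above background on any array of a tissue. The 3 close Nnt probes lie at 1.15 to 1.48 on both axes. The AK034948 probe, named Slc25a37, lies at the lower left, far from the other probes of that name.

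Entpd4 lies 103.995 kb from the nearest of the first 2 Slc25a37 probes and was read on the plus strand by 2 probes. A_51_P302222, the brighter, read 1.71, 1.98, 2.08, 1.82 and 1.93 in WT liver and 1.16, 1.06, 1.01, 1.32 and 1.16 in CD44KO liver. The genotypes did not overlap there, with a difference of -0.76 (SE 0.09), and they overlapped in WAT, with -0.60 (SE 0.23). A_52_P582907 showed the reverse, with -0.25 (SE 0.14) and overlap in liver and -1.02 (SE 0.24) without overlap in WAT. Both probes were thus lower in CD44KO in both tissues, while each separated the genotypes in 1 tissue only.

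The brighter Entpd4 probe (chr14:64228679-64228738, plus strand) shares its site with a minus strand probe for the cDNA AK086749 (chr14:64228669-64228728), and 50 bases of the pair are complementary. Both sequences are shown because they read the 2 strands of the same site, with the complementary bases in capitals.
Entpd4 A_51_P302222: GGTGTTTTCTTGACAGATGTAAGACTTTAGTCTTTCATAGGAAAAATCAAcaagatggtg
AK086749 A_52_P677074: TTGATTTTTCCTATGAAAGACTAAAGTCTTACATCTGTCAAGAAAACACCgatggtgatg

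The array's annotation describes AK086749 as a homolog of a mitochondrial carrier-like protein. AK086749 was well above background on no liver array and on 3 of the 10 WAT arrays, so it was too dim to test. Its signals ran from -5.85 to -4.86 in WT liver and from -7.10 to -6.52 in CD44KO liver, and from -5.94 to -4.87 in WT WAT and from -8.55 to -5.98 in CD44KO WAT. The CD44KO arrays were below the WT arrays in both tissues, by only 0.04 between the nearest WAT arrays.

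Between the first Slc25a37 probe and Loxl2 the array held 13 probes over 232 kb, and the AK034948 probe lay 96.4 kb beyond Entpd4 and 11.4 kb before Loxl2. Of the 8 that passed the filter on dim probes, 3 in liver and 4 in WAT were lower in CD44KO with no overlap and 0 were higher, where 11.7% and 6.18% of all probes tested did not overlap in either direction. Of these, 2 in each tissue were probes named Slc25a37 or Entpd4, and the stretch was chosen after its values were seen. It ended at the first Loxl2 probe, which was among the 3 in liver. A brighter Loxl2 probe just beyond it, not counted here, overlapped in both tissues. The cDNA AK038254, between Entpd4 and AK034948, was too dim to test. It read -5.17 to -4.42 in WT liver and -7.30 to -6.09 in CD44KO liver and was also lower on every CD44KO WAT array, but was well above background on only 3 of the 20 arrays. AK019700, a minus strand cDNA 42.5 kb from the first Slc25a37 probe, is described by the array's annotation as a mitochondrial solute carrier protein. It was lower by 0.96 in CD44KO liver with overlap (limma adjusted p = 0.0208) and by 2.19 in CD44KO WAT without overlap (limma adjusted p = 0.168). It is counted with the neighbours below, and whether it reads Slc25a37 was not tested.

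**Figure D3:**
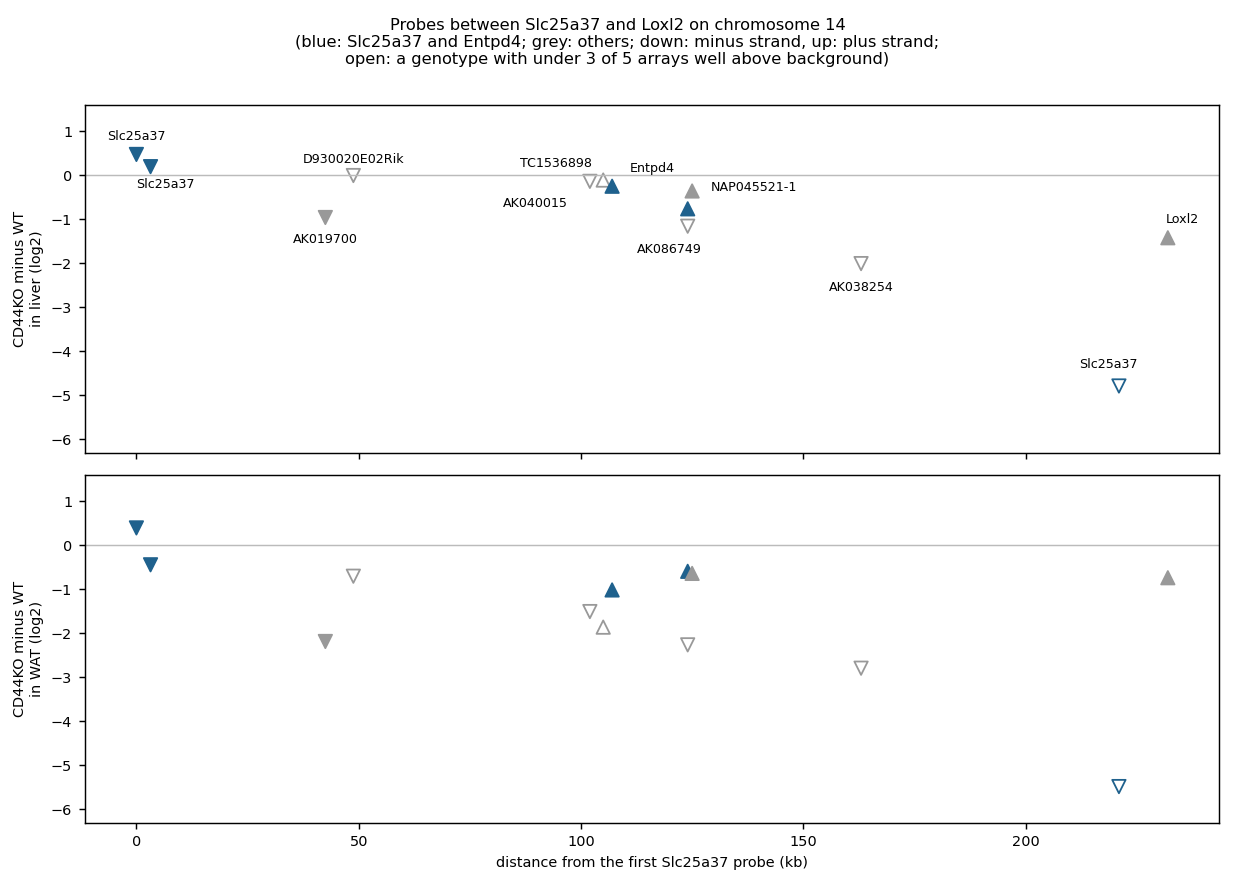
CD44KO minus WT (log2) in liver (top) and WAT (bottom) against the distance in kb from the first Slc25a37 probe for the 13 probes up to Loxl2; blue triangles are Slc25a37 and Entpd4, grey ones other probes, the point of a triangle gives the strand, and open triangles had a genotype with under 3 arrays well above background. The AK034948 probe at 221 kb lies lowest in both tissues, and the Slc25a37 probe at 0 kb is the only one above 0 in both.

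Usp32 and TC1480729 were read at 1 place on chromosome 11 by 3 probes, shown because the difference changed within a few kb. They lie at chr11:85055011-85055070, chr11:85056178-85056226 and chr11:85058671-85058730 in this order, and no base is marked. The site given for the TC1480729 probe spans 49 bases, fewer than the 60 of the probe. The array's annotation describes TC1480729 as partly similar to Usp32, and its probe lay 1.108 kb from the first Usp32 probe.
Usp32 A_51_P341871: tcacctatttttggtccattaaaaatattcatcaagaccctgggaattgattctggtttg
TC1480729 A_52_P12181: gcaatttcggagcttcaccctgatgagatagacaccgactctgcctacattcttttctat
Usp32 A_51_P412305: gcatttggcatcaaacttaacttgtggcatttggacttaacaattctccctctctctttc

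TC1480729 read -1.94, -1.09, -1.62, -1.31 and -1.35 in WT liver and 1.34, 1.45, 1.12, 1.45 and 1.08 in CD44KO liver. In WAT it read -1.01, -1.82, -1.95, -1.65 and -1.82 in WT and 0.29, 0.95, 0.24, 0.14 and 0.25 in CD44KO. The genotypes were apart by 2.17 in liver and 1.16 in WAT at their nearest arrays, and the means differed by 2.75 (SE 0.16) and 2.02 (SE 0.22), or 6.74-fold and 4.06-fold.

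The Usp32 probe A_51_P341871 read -1.75, -1.73, -1.10, -1.61 and -1.69 in WT liver and -0.58, -0.48, -0.54, -0.51 and -0.73 in CD44KO liver. In WAT it read -1.81, -1.01, -1.08, -1.11 and -1.03 in WT and -0.06, 0.29, 0.76, -0.17 and 0.18 in CD44KO. It was higher on every CD44KO array, by a mean of 1.01 (SE 0.13) in liver and 1.41 (SE 0.22) in WAT, so TC1480729 and Usp32 differed in the same direction by different amounts. The third probe, A_51_P412305, overlapped in both tissues, with differences of 0.13 (SE 0.51) and -0.35 (SE 0.42). Leaving out 1 array changed the sign of both, to -0.12 in liver without CD44KO(HFD) liver replicate 4 and 0.01 in WAT without CD44KO(HFD) WAT replicate 5, so this probe gave no direction. It was well above background on 7 of the 10 liver arrays, and its liver signals ran from -5.03 to -3.09 in WT and from -5.03 to -3.00 in CD44KO.

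Nlk lies 6.405 Mb from Usp32 on chromosome 11 and was read by 2 probes 0.35 kb apart. A_52_P470373 read -0.20, -0.13, 0.09, 0.06 and -0.09 in WT liver and -1.43, -1.23, -1.09, -1.19 and -1.16 in CD44KO liver. The genotypes did not overlap, and the mean was lower by 1.17 (SE 0.09) in CD44KO, a 2.25-fold difference. In WAT it read 0.12, 0.74, 0.59, 0.64 and 0.62 in WT and -0.21, -0.07, 0.35 and 0.41 in CD44KO replicates 2 to 5, with a difference of -0.24 (SE 0.24) over all arrays.

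The CD44KO array not in that list, replicate 1, lay above all 5 WT arrays, and the Nlk difference in WAT was -0.42 without it and -0.12 without CD44KO(HFD) WAT replicate 2. A_51_P444874 went the same way, with -0.99 (SE 0.12) and no overlap in liver and -0.39 (SE 0.18) with overlap in WAT. Both Nlk probes were thus lower in CD44KO liver without overlap, and over all arrays they differed less in WAT. The liver difference minus the WAT difference was -0.92 (SE 0.26) and -0.60 (SE 0.22). CD44KO(HFD) WAT replicates 1 and 4 lay on a slide that held no WT array. Within slides that held both genotypes, A_52_P470373 differed by -1.52 to -0.98 in liver and by -0.71 to -0.28 in WAT. For A_51_P444874 these ranges were -1.59 to -0.71 and -0.80 to -0.34.

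Drbp1 (Rbm45) was read by 1 probe, whose sequence is shown because the result rests on it alone. Its site, chr2:76224247-76227195, spans 2949 bases and so crosses a gap between matched blocks of this 60-base probe, and it lies 26.4 Mb from the nearest Cd44 probe. No base is marked.
Drbp1 A_51_P451374: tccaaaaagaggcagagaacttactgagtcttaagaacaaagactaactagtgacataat

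The probe read -4.47, -4.29, -4.60, -4.81 and -4.36 in WT liver and -1.27, -0.87, -1.29, -1.02 and -1.08 in CD44KO liver. In WAT it read -1.16, -2.97, -3.42, -8.02 and -3.50 in WT and 0.03, 0.21, 0.05, -0.10 and 0.04 in CD44KO. Within each tissue all CD44KO arrays were above all WT arrays, and the WT arrays were well above background on 3 of 5 in liver and 4 of 5 in WAT. The difference was 3.40 (SE 0.12) in liver and 3.86 (SE 1.02) in WAT, both resting partly on WT arrays not well above background. The WAT value was 2.81 without WT(HFD) WAT replicate 4 and 4.52 without replicate 1, and with normexp background correction the values were 1.85 in liver and 2.63 in WAT. The SD was 2.54 over the WT WAT arrays and 0.11 over the CD44KO WAT arrays.

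The tissues could be compared with a test, since the tissue difference played no part in the choice of genes. Liver and WAT arrays lay on different slides and were scanned on different scanners, so tissue, slide and scanner cannot be told apart, and the fit took the arrays as separate although the tissues share mice. In limma's fit, averaged over genotypes, 12 of the 15 probes passed a Benjamini-Hochberg adjusted p under 0.05, 9 of them higher in liver, while 80.1% of all probes tested passed. The share of these genes was therefore close to that of the array as a whole.

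Nnt was higher in liver on all 4 probes, by 2.62 (SE 0.09, limma adjusted p = 4.94e-15) on the brightest, and every liver array lay above every WAT array. The largest value, 2.90 on A_52_P593890, rests mostly on WAT arrays not well above background. In WAT that probe was well above background on none of 5 WT and 2 of 5 CD44KO arrays. Entpd4 was higher in liver by 1.49 (SE 0.12, adjusted p = 1.78e-09, limma) and Slc25a37 by 0.84 (SE 0.12, adjusted p = 4.32e-06, limma) on their brightest probes. Nlk was lower in liver by 1.06, a liver minus WAT value of -1.06 (SE 0.13, limma adjusted p = 3.79e-07). It was -0.59 in WT and -1.52 in CD44KO. The other Nlk probe had a value of -0.44 (SE 0.11, limma adjusted p = 0.00104), with -0.14 in WT and -0.74 in CD44KO. Usp32 had a value of -0.57 (SE 0.13, limma adjusted p = 0.000567), with -0.37 in WT and -0.77 in CD44KO. The Usp32 value did not pass with quantile normalization (-0.31, limma adjusted p = 0.332). TC1480729 went the other way from Usp32, at 0.55 (SE 0.14, limma adjusted p = 0.00139), with 0.18 in WT and 0.92 in CD44KO. Drbp1 had a value of -0.92 (SE 0.54, adjusted p = 0.124, limma), which passed with quantile normalization (-1.01, adjusted p = 0.0273), with normexp background correction (-0.45, adjusted p = 0.0316) and without WT(HFD) WAT replicate 4 (-1.45).

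**Figure D4:**
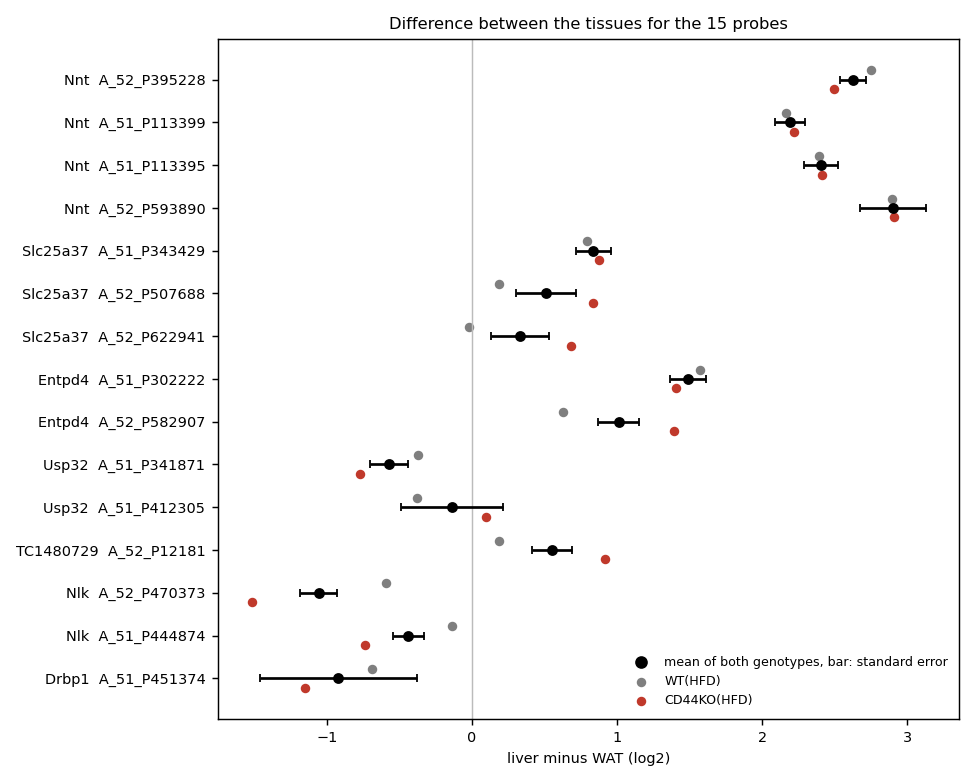
Liver minus WAT (log2) for the 15 probes, with the mean over genotypes and its standard error in black, WT(HFD) in grey and CD44KO(HFD) in red. All 4 Nnt probes lie between 2.19 and 2.90, and both Nlk probes lie to the left of 0. The Nnt probe at 2.90, A_52_P593890, was mostly not well above background in WAT.

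Genes beside the 7 were tested, since they had not been chosen by their values. Within 1 Mb of a probe of the 7 genes the array held 278 other probes of 179 gene names. In liver 28 of the 166 tested passed an adjusted p under 0.05 (limma), 14 higher and 14 lower in CD44KO, which is 16.9% against 13.6% of all probes tested, with 7.85% of all probes higher and 5.75% lower. In WAT 0 of 185 passed (limma; 25 had an unadjusted p under 0.05), against 0.0398% of all probes tested, while a fit of all 20 arrays gave 17. With 5 Mb on each side the numbers were 73 of 561 in liver and 0 of 642 in WAT.

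By place, the called liver neighbours were 0 of 7 around Nnt, 11 of 39 around Slc25a37 and Entpd4, 4 of 29 around Usp32, 7 of 65 around Nlk and 6 of 26 around Drbp1. Beside Nnt the 7 tested differences in liver ran from -0.24 to 0.23. With 5 Mb on each side of Nnt, 3 of 20 were called in liver and 0 of 22 in WAT (limma). Of these 22, 13 had an unadjusted p under 0.05 in WAT, against 4111 of 27652 over all probes. No overlap in WAT was seen for 7 of the 22 (31.8%), against 5.83% to 7.81% at the other places and 6.18% of all probes tested. Around Slc25a37 and Entpd4 the largest were Hr, which encodes a nuclear corepressor, at -1.55 (SE 0.37, limma adjusted p = 0.0271), and Loxl2, a lysyl oxidase that cross-links collagen, at -1.42 (SE 0.24, limma adjusted p = 0.0117). A brighter Loxl2 probe differed by -0.90 in liver with overlap (SE 0.23, limma adjusted p = 0.0307) and by 0.004 in WAT. Beside Nlk, Spag5, a spindle protein, fell by 1.21 (SE 0.25, limma adjusted p = 0.0185), and beside Drbp1 the lowest called difference was that of 2610301F02Rik at -0.98 (limma adjusted p = 0.0128) and the highest that of Hnrpa3, an RNA-binding protein, at 0.71 (limma adjusted p = 0.00876). Nfe2l2, the transcription factor of the antioxidant response, had 3 of 4 probes called there, at -0.71, -0.49 and -0.32, while its brightest probe was not called (-0.29, limma adjusted p = 0.0798).

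The liver count rested on all arrays together. It was 36 without CD44KO(HFD) liver replicate 3 and kept within 1.5 times 28 without WT(HFD) liver replicate 4, but it fell to 13, 8, 18 and 16 without WT(HFD) liver replicates 1, 2, 3 and 5 and to 16, 14, 11 and 13 without CD44KO(HFD) liver replicates 1, 2, 4 and 5.

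**Figure D5:**
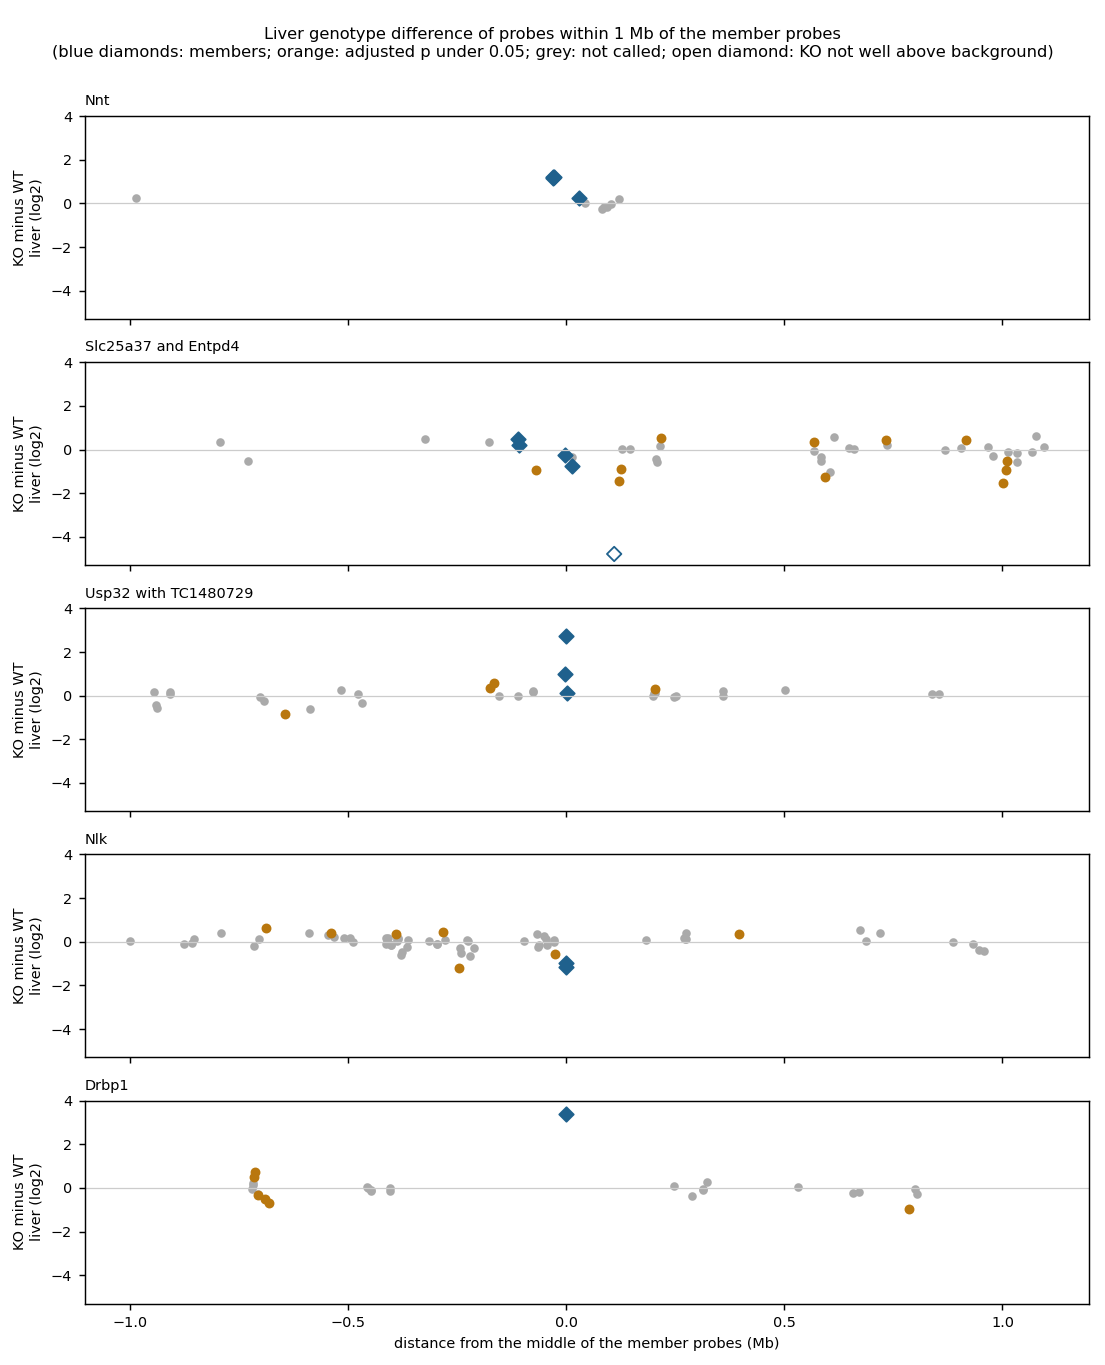
CD44KO minus WT in liver (log2) for the tested probes within 1 Mb of the 7 genes, against the distance in Mb from the middle of their probes at 5 places; blue diamonds are the 7 genes, orange points passed an adjusted p under 0.05 and grey points did not. Orange points are scattered among grey ones at 4 places and there is none beside Nnt.

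A set of probes like these was counted over the whole array. Of 23352 probes tested in both tissues, 27 (0.116%) of 22 gene names had no overlap in either tissue, went the same way in both and differed by at least 1 on the log2 scale in both. They held 2 Cd44 probes and 7 probes of 5 of the 7 genes. The 7 were 3 Nnt probes, 1 each of Usp32, TC1480729 and Drbp1, and the AK034948 probe under the name Slc25a37. Entpd4 and Nlk did not reach it. Of the 27, 9 were higher in CD44KO, and 6 of these 9 were probes of the 7 genes. The 7 genes had been chosen by such a difference, so both counts follow from the choice and nothing was read from them. The other higher ones were 2 probes of Erdr1 and 1 of Igsf21. On chromosome 2, where Cd44 is, lay 6 of the 27: the 2 Cd44 probes, Drbp1, Tcp11l1, AK049434 and 2810002D19Rik. The share of chromosome 2 over all probes was not counted. Oas3, Oasl1 and Irf7, which interferon induces, and Nkg7 and Slamf7, which lymphocytes express, were among the lower ones.

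Over the 20 arrays, with each tissue's mean taken off, the probes of genes other than the 7 that were most like the brightest Nnt probe were BC049806 (Pearson r = 0.89), Ddx3y (0.88), Erdr1 (0.88), Pde8a (0.88) and Txnrd3 (0.87), of 23188 probes compared. The most opposite, again outside the 7 genes, were Cd44 (-0.96), LOC668139, Irf7, Trim30 (each -0.90) and 2810002D19Rik (-0.89). Among the 7 genes, r with this probe was 0.98 and 0.96 for the 2 close Nnt probes, 0.93 for TC1480729 and 0.81 for Drbp1, and -0.73 and -0.80 for Nlk and -0.76 and -0.73 for Entpd4. The probes of 1 gene name did not go together for Usp32, at 0.95 and -0.11. Nor did those named Slc25a37, at 0.60 and -0.21 and, for the AK034948 probe beyond Entpd4, -0.95. These values describe likeness over 2 genotypes that differ in each gene, so they follow the genotype and carry no test.

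Genes of the same pathways or families as the 7 were read from 6 lists by the brightest probe of each gene. Of 93 list genes tested in liver, 20 passed an adjusted p under 0.05 (limma), against 13.6% of all probes tested (7.85% higher, 5.75% lower), and in WAT none of any list passed (limma), with 1 to 6 genes of a list at an unadjusted p under 0.05. Without WT(HFD) liver replicate 2 the liver count was 5, and it ran from 11 to 13 without WT(HFD) liver replicates 1 or 3 or CD44KO(HFD) liver replicates 1, 2, 4 or 5.

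Of 20 genes of mitochondrial NADPH and redox balance tested in liver, 1 rose and 5 fell, with a list median of 0.07 against 0.08 for all probes. Gpx4, which reduces lipid peroxides, fell by 0.70 (limma adjusted p = 0.0167) and Mthfd2, a mitochondrial folate enzyme, fell by 1.16 (limma adjusted p = 0.021). Prdx3 and Prdx5, mitochondrial peroxiredoxins, had differences of -0.31 and -0.28, Ucp2, an inner membrane carrier, -0.98, and Me3, a mitochondrial malic enzyme that makes NADPH, was the one that rose, by 0.51. Idh2, the other main mitochondrial source of NADPH, had a difference of -0.23 (limma adjusted p = 0.257).

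Of 19 genes of mitochondrial iron and haem, 3 rose and 1 fell in liver, with a median of 0.14. Fech, Cpox and Ppox, enzymes of the last steps of haem synthesis, rose by 0.40, 0.62 and 0.39, and Tspo, an outer membrane porphyrin-binding protein, fell by 0.45 (limma adjusted p = 0.01). Slc25a28, mitoferrin-2, which carries iron in other cells, had a difference of 0.06 (limma adjusted p = 0.624).

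Of 12 genes of nucleotide hydrolysis, 3 rose and 1 fell: Entpd6, Enpp1 and Enpp3 rose by 0.32, 0.57 and 0.56, and Entpd5 fell by 0.36. Of 15 genes of Nlk and Wnt signalling, Tcf7l2 and Rnf138 rose by 0.31 and 0.38 and Notch1 fell by 0.53. Of 17 deubiquitinases of the Usp family, Usp28 rose by 0.42 and Usp18, an interferon-induced member, fell by 1.76 (limma adjusted p = 0.00419). Of 10 RNA-binding proteins of the Rbm family, Rbms1 alone passed, with -0.31.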

How the data were processed

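RNA of liver and WAT was read on 20 Agilent arrays, 1 sample each. The authors deposited linear intensity values made with Feature Extraction 9.5.3.1 (9.5 in the submitters' processing notes), which had corrected trends within each array, subtracted no further background and replaced the dimmest signals by estimates. The deposited series table holds the same intensities on all 20 arrays. From the 43379 spots that were not controls, spots flagged as outliers were left out, log2 signals were set against the 75th percentile of their array and spots of a probe were averaged. A probe was tested in a tissue when at least 3 of 5 arrays of a genotype were well above background. Tests were run in limma 3.58.1 (R 4.3.3, with version 1.5.0 of statmod and 1.17.8 of data.table) with Benjamini-Hochberg adjustment over all probes tested, at a threshold of 0.05. Genotypes were compared within each tissue, and tissues and the difference between the 2 genotype differences in a fit of all 20 arrays. The number of arrays limits the precision.

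The genes and the 6 lists of related genes were chosen with earlier results of these data known. The genes named beside them were up to 5 neighbours per place, the 5 probes most and least like Nnt, the probes that differed in both tissues, and the list genes past the threshold, of which those with the largest differences are given. Positions are those of the array's annotation (mm7). Current symbols came from RefSeq's table (GRCm38.p6) by accession for 7 of the 15 probes, and no position was taken from it. Each fit was tested on simulated data. The arrays of a group came from separate mice. Alternatives were normexp background correction (offset 50), quantile normalization, no filter, 5 of 5 arrays above background, slide and replicate number as blocks, all 20 arrays in 1 fit, outlier spots kept, a window of 5 Mb and each array left out. Those for the AK034948 probe, the overlap counts, the interaction and the list counts were added after the data were seen.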

Additional observations from a re-analysis of the deposited data

Results flagged for a closer look

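Of 64 groups of 5 arrays examined, 8 held an array far from the other 4, measured as its gap to the nearest array over the range of the group. Chance gives about 1 in 20 groups. WT(HFD) WAT replicate 1 had 4 of the 8: Slc25a37 A_52_P507688 at -1.42 against -3.49 to -3.24 (gap 0.878 of the range), Usp32 A_51_P341871 at -1.81 against -1.11 to -1.01 (0.876), Nlk A_52_P470373 at 0.12 against 0.59 to 0.74 (0.755), and the share of spots well above background, 89.5% against 63.4% to 69.5% (0.766). WT(HFD) liver replicate 3 had 2: Slc25a37 A_52_P507688 at -3.22 against -2.79 to -2.67 (0.790) and Usp32 A_51_P341871 at -1.10 against -1.75 to -1.61 (0.784). In TC1480729 CD44KO(HFD) WAT replicate 2 read 0.95 against 0.14 to 0.29 (0.817), and in Slc25a37 A_52_P507688 CD44KO(HFD) WAT replicate 1 read -3.30 against -3.53 to -3.47 (0.736).

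The CD44KO minus WT difference was not the same in liver and WAT for 3 neighbours of the 7 genes and 3 list genes, by limma's interaction term with adjustment over 28988 probes, of which 334 passed. The neighbours were Nudt18 (-0.94 in liver, 0.27 in WAT, limma adjusted p = 0.0455), Tmem97 (-0.55 and 0.28, limma adjusted p = 0.0497) and 4933404M19Rik (-0.22 and 0.52, limma adjusted p = 0.0425). The list genes were Gpx4 (-0.70 and 0.46, limma adjusted p = 0.0304), Mthfd2 (-1.16 and 0.09, limma adjusted p = 0.046) and Enpp1 (0.57 and -0.67, limma adjusted p = 0.0328).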

How the results depend on the processing

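No difference of the brightest probe of any of the 7 genes, nor of the AK034948 probe, changed sign under any alternative run. The counts moved more. In liver the number of probes called, 3358, was 641 with normexp, 1027 with no filter, 1329 with the replicate block and 723 with all 20 arrays in 1 fit, and 858 to 4647 with an array left out. The neighbours called in liver, 28, were 4, 13, 12 and 7 under the same settings, 73 in the window of 5 Mb and 8 to 36 with an array left out. The list genes called, 20, were 4, 7, 7 and 5, and 5 to 22. In WAT the probes called, 11, were 35 with normexp, 3 with no filter, 4 with slide as a block, 3 with the replicate block, 1817 with all 20 arrays in 1 fit, and 3 (without WT(HFD) WAT replicate 3, among others) to 19 (without replicate 1), and the neighbours called in WAT, 0, were 17 with all 20 arrays. The neighbours with an interaction, 3, were 0 with quantile normalization and with the replicate block, and 0 to 4 with an array left out. The cause of these shifts was not tested. Same-numbered WT and CD44KO arrays correlated at -0.038 to 0.417 in liver, against -0.499 to 0.533 for other numbers. In WAT they correlated at -0.212 to 0.091, against -0.143 to 0.149. Same-numbered liver and WAT arrays correlated at -0.21 to 0.141 in WT, against -0.102 to 0.154 for other numbers. In CD44KO they correlated at -0.041 to 0.149, against -0.177 to 0.141. The labels do not say that a number marks a mouse, and the numbers were not taken as pairs. The probes without overlap were 10 to 11 in liver and 8 to 9 in WAT with an array left out, and 11 to 12 of 15 probes differed between tissues.

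Tissue, slide and scanner cannot be told apart. Drbp1 and TC1480729 were each read by 1 probe, and a lower signal at 1 probe does not say how much of the transcript, as against its probed stretch, differed. The AK034948 probe has no CD44KO level, only a bound.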
